A study of Mus musculus with 5 samples.

Results

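The genes described here encode the subunits of the proteasome, and their transcripts were measured in the mouse hippocampus before and after seizures. Members were taken by symbol, as every gene named Psma, Psmb, Psmc, Psmd or Psme followed by a number and at most 1 letter, which gave 44 of the 55385 genes in the count tables. By their known place in the complex they fell into 14 constitutive core subunits (Psma1 to Psma7 and Psmb1 to Psmb7), 20 genes of the regulatory particle series (Psmc and Psmd), 3 immunoproteasome subunits (Psmb8, Psmb9 and Psmb10), 5 activator genes (Psme1, Psme2, Psme2b, Psme3 and Psme4) and 2 core subunits of restricted tissues (Psma8 and Psmb11).

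The study triggered seizures with kainic acid, a glutamate receptor agonist, to follow transcripts induced by neuronal activity. RNA sequencing covered 5 libraries of hippocampal total RNA from male C57/bl6 mice aged 3 months, namely 1 library of untreated control, 1 library at 1 h, 2 libraries at 4 h (library 1 and library 2) and 1 library at 8 h after seizure onset. Kainic acid was given by intraperitoneal injection at 20 mg/kg, the control was untreated, and a vehicle library was not analysed here. Per the study's methods, tissue was kept only from mice that reached stage 5 of a modified Racine scale, and the first rearing counted as onset. The sources used here do not say whether a library holds 1 mouse or several. The p-values below rest on the spread between the 2 libraries at 4 h, with variance shared over genes. They need not measure a spread between mice.

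The proteasome is the protease that degrades proteins tagged with ubiquitin. Its core is a barrel of 4 stacked rings, alpha and beta, in which Psmb5, Psmb6 and Psmb7 carry the cutting sites; the regulatory particle, with a ring of ATPases, a base and a lid, recognises and unfolds the substrate. Under interferon the 3 immunoproteasome subunits replace the cutting subunits, and the activators cap the barrel in place of the regulatory particle. In neurons protein degradation by the proteasome takes part in synaptic plasticity, and transcription of the subunits is known to be driven by NFE2L1, which binds the antioxidant response element.

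The libraries held between 16612225 and 19109204 counts on genes, of which the 44 members together took between 0.304% and 0.326%. The immediate early gene Fos, a marker of neuronal activity, was counted 215 times in the control, 17563 at 1 h, 8743 and 1331 in library 1 and library 2 at 4 h, and 302 at 8 h, so the pair at 4 h differed in this marker of activity. Over 8 activity genes with Fos among them the summed level was 257 normalized CPM in the control, 5678 at the 1 h point, 3924 and 1171 in the 4 h pair and 243 by 8 h. The pair also differed in markers of the choroid plexus, a tissue beside the hippocampus: the summed level of 6 such genes was 3990 normalized CPM in the control, 1685 at the 1 h point, 29.9 and 4266 in the 4 h pair and 3102 by 8 h. The part of either difference in the results below was not tested. Normalized CPM are counts relative to library size (CPM) after scaling by trimmed mean of M values (TMM). All 8 markers of hippocampal neurons were detected, with sums between 3788 (at 8 h) and 4366 normalized CPM, mostly from Snap25 and Camk2a (1437 and 1436 in the control). At 8 h 6 of the 8 lay below 0 (median log2 fold change -0.15). At 4 h 4 of the 8 had an unadjusted edgeR p under 0.05, in both directions, and 0 were called: the log2 fold change was -1.17 for Neurod6 and -0.53 for Rbfox3, and 1.28 for Prox1 and 0.80 for Gad1.

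Because the antioxidant response element is a known route to the subunit genes, the windows around the transcription start of members were searched for it. RefSeq windows on GRCm38.p6, from 250 bases before to 50 after the start, matched 37 of the 44 members by symbol. The letters TGACNNNGC on either strand were found in 6 of these 37 members (16.2%), namely Psmb5, Psmb6, Psmc6, Psmd9, Psmd12 and Psme4, and in 14.0% of all genes with a window. The following stretches show the match in capitals with its flanks for 5 of the 6, 5′ to 3′ on the strand of the gene, and in Psmc6 and Psme4 the match lies on the opposite strand.
Psmb5 (chr14:54618024-54618052, minus strand): cgtgaagttgTGACGTCGCggcgttgcca
Psmb6 (chr11:70525338-70525366, plus strand): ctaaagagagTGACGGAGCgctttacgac
Psmc6 (chr14:45329587-45329615, plus strand): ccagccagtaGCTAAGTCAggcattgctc
Psmd9 (chr5:123228149-123228177, plus strand): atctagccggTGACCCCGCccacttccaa
Psme4 (chr11:30771758-30771786, plus strand): cgctgcggctGCAGCGTCAccagaagagc

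A match is a description of the sequence and not a site of binding. Of other letters searched on both strands, CCAAT (the CCAAT box) was in 14 members (37.8%) against 41.1% of genes, CACGTG (an E-box) in 4 (10.8%) against 8.09%, and TGANTCA (the AP-1 site of the Fos family) in 2 (5.41%) against 8.97%. The cAMP response element TGACGTCA was in none of the 37 members and in 2.03% of genes. Psme3, an activator described below, held both the E-box and the CCAAT letters in the 60 bases before its start (chr11:101316153-101316212, plus strand), here in capitals, with the CCAAT box on the opposite strand.
Psme3: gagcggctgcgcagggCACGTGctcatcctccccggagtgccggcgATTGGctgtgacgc

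Transcripts of nearly the whole complex were abundant in the untreated hippocampus and in every library after seizure onset. Per kilobase of merged exon, the mean level over the 5 libraries had a median of 49.9 normalized CPM for the 6 ATPases, 35.9 for the 7 beta subunits, 34.8 for the 3 other base subunits (Psmd1, Psmd2 and Psmd4), 26.1 for the 7 alpha subunits and 25.5 for the 8 lid subunits. The range within a ring was wide, from 17.4 for Psmc2 to 85.7 for Psmc5 among the ATPases. Lower levels per kilobase were measured for the assembly chaperones Psmd5, Psmd9 and Psmd10 (median 6.43), which help to build the base and leave it, and for the activators (median 8.37), where Psme3 stood highest at 24.0. The immunoproteasome was divided, with Psmb10 at 10.5, Psmb8 at 0.63 and Psmb9 at 0.27 normalized CPM per kilobase. The exon length included every annotated transcript, so genes with long retained introns read lower on this scale.

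**Figure D1:**
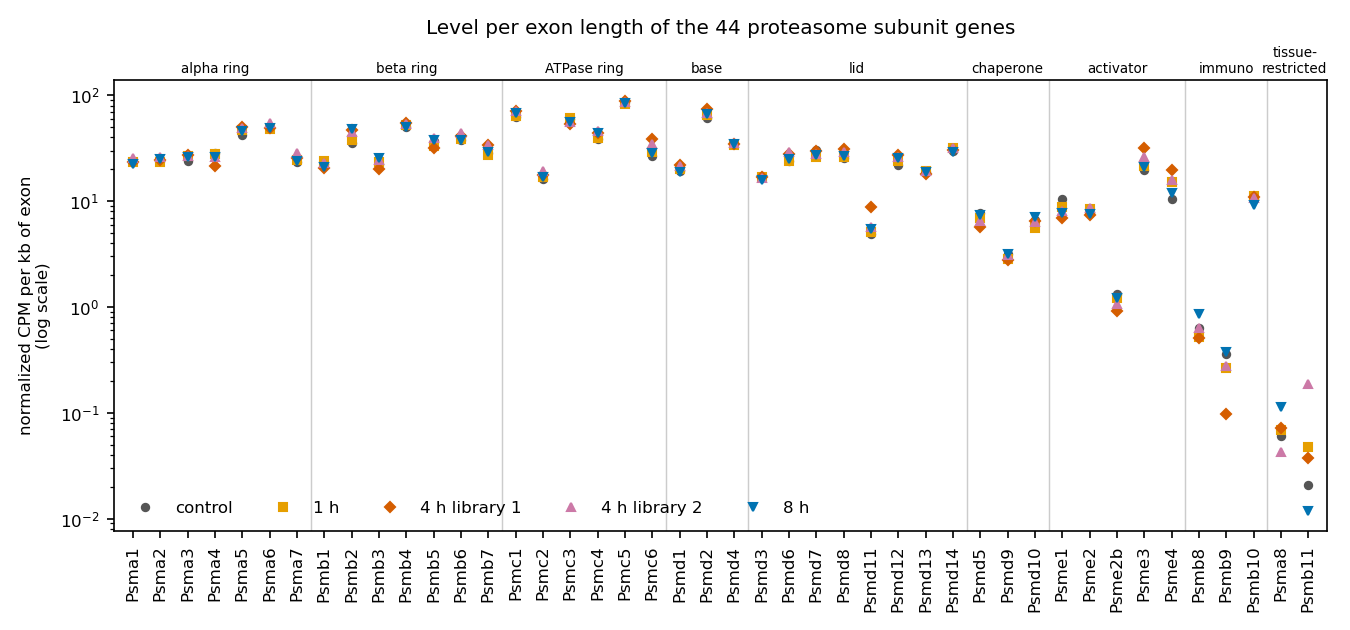
Normalized CPM per kilobase of merged exon (vertical axis, log scale) for each of the 44 members (horizontal axis, grouped by subcomplex), with 1 point for each of the 5 libraries. The points of most genes lie on top of each other, and Psmb8, Psmb9, Psma8 and Psmb11 lie under 1 in every library.

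The members of restricted tissues were at the limit of detection. Psma8, the alpha subunit of testis, had 3, 3, 3, 2 and 5 counts in the control, at 1 h, in library 1 and library 2 at 4 h and at 8 h, and it was the 1 member that did not pass the filter on low counts. Psmb11, the beta subunit of thymus, had 2, 4, 3, 17 and 1 counts in the same order, and its highest count was in library 2 at 4 h. Both were at or near 3 counts in the control, so no fold is given for them.

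No member passed the test at any time. With edgeR's quasi-likelihood test and Benjamini-Hochberg adjustment over the 19768 genes tested, 0 of the 43 members tested were called at an adjusted p under 0.05 at 1 h, at 4 h or at 8 h against the control, over the 3 times jointly, at 4 h against 1 h, or at 8 h against 4 h. The share of all genes called was also close to nothing, at 0%, 0.00506%, 0%, 0.0101%, 0.00506% and 0% in the same order. DESeq2 and limma-voom likewise called 0 members, while over all genes DESeq2 called 46 at 1 h, 216 at 4 h and 31 at 8 h, and limma-voom called 0 at each time. The lowest adjusted p of a member at 1 h, 4 h and 8 h was 1, 0.327 and 1.00. At an unadjusted p under 0.05 there were 0 members at 1 h (2.42% of all genes), 3 at 4 h (11.6% of all genes) and 0 at 8 h (4.51% of all genes), the 3 being Psmc6, Psme3 and Psme4. Only the pair at 4 h is replicated, so 1 residual degree of freedom was left and the control, 1 h and 8 h were taken to vary like that pair.

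The intervals say how large a difference these libraries could still hold. For the 35 members with a mean of at least 20 normalized CPM, the half-width of the 95% interval of the log2 fold change had a median of 0.49 at 1 h, 0.43 at 4 h and 0.49 at 8 h. The interval lay within 1 log2 unit of the control for 34 of the 35 at 1 h, for 32 at 4 h and for 34 at 8 h. A doubling was therefore outside the interval for most of these subunits. Differences smaller than these half-widths were not detectable, and larger ones could also go uncalled. On simulated data for 4 h against control, edgeR called 11 of 100 genes changed 2-fold in the right direction. The changed genes were drawn at random from all genes tested, whose median level was 10.4 normalized CPM against 82.6 for the 35 members. That share is therefore not a rate of detection for these members.

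Transcript levels of the members were narrow in range from library to library. For the 35 abundant members the highest library was between 1.04 and 1.89 times the lowest, with a median of 1.17, and 32 of them stayed under 1.5 times. The median over the 7749 genes tested at the same minimum level was 1.36. The steadiest was Psmd4, the ubiquitin receptor of the base, at 98.0 normalized CPM in the control, 96.3 at the 1 h point, 97.4 and 99.6 in the 4 h pair and 97.2 by 8 h. Psmd2, a scaffold of the base and the member with the most counts, had 248, 261, 298, 277 and 271 normalized CPM.

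**Figure D2:**
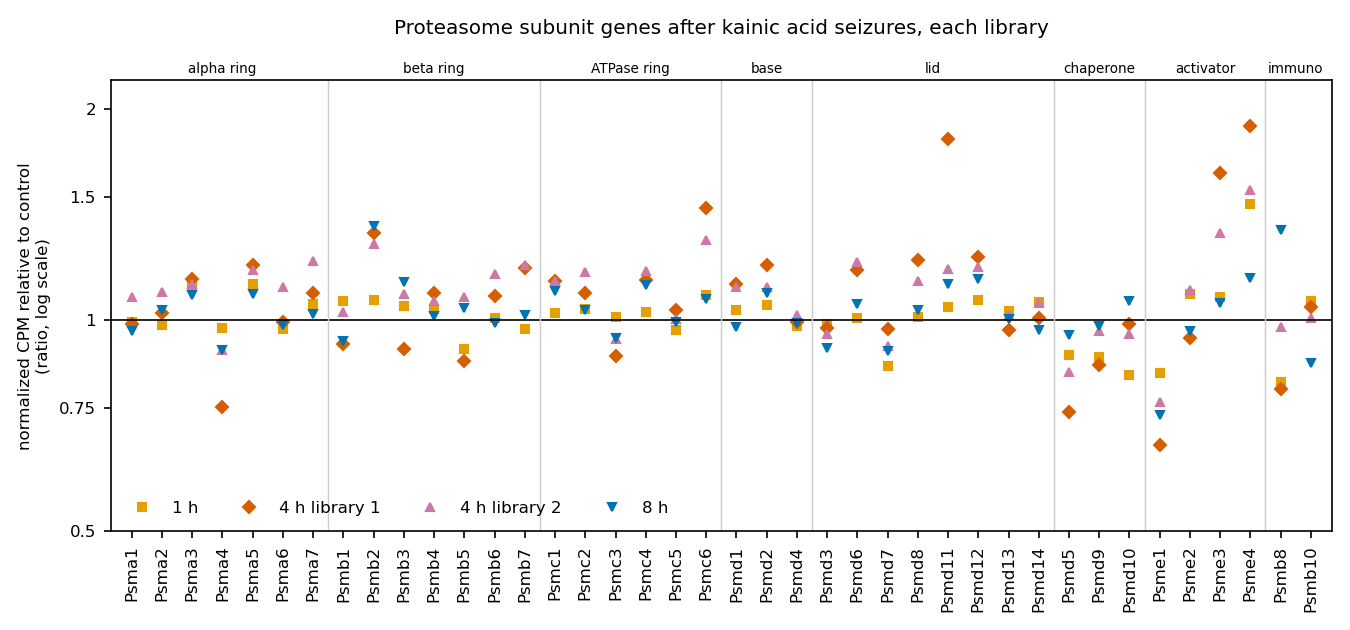
Normalized CPM relative to the control (vertical axis, log scale) for the members with a mean of at least 2 normalized CPM (horizontal axis, grouped by subcomplex), with 1 point each for 1 h, both libraries at 4 h and 8 h. Most points lie near 1, and Psme4, Psmd11, Psme3 and Psmc6 stand highest at 4 h and Psme1 lowest.

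The median difference from the control at 4 h varied between the parts of the complex. The median log2 fold change of the 14 core genes at 1 h, 4 h and 8 h was 0.03, 0.10 and 0.03, and that of the 20 regulatory genes was 0.02, 0.11 and 0.03. The 20 include 3 assembly chaperones, and for the other 17 the median was 0.04, 0.18 and 0.05. At 4 h the median was 0.18 in the ATPase ring, 0.16 in the rest of the base and 0.14 in the lid. It was 0.09 in the alpha ring and 0.11 in the beta ring. The differences between these parts were not tested, and their order differed between library 1 and library 2. The median log2 ratio of the alpha ring to the control was 0.036 in library 1, the lowest of these parts. In library 2 it was 0.158, above the lid (0.134) and the beta ring (0.124). With scaling by library size alone the medians at 1 h and 4 h turned to -0.040 and -0.027 for the core and to -0.049 and -0.018 for the 20 regulatory genes, and the 17 had -0.036 and 0.058, under which the median over all genes moved by -0.072 and -0.121. The 3 immunoproteasome genes had medians of -0.28, -0.16 and 0.06, and the 5 activators 0.11, 0.03 and -0.05. Over all genes tested the median was -0.0050, 0.0098 and 0.0091. The activator median at 4 h rests on genes on both sides of 0 and changed sign with the scaling and with the library left out. The immunoproteasome median at 4 h was -0.029 without library 1 and -0.31 without library 2.

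At 4 h both libraries lay above the control for 24 of the 43 members, both lay below it for 11, and for 8 the control lay between them. Over all genes tested these shares were 38.1% above and 38.3% below. Psmb11 is among the 24, and it passed the filter on low counts through library 2 at 4 h. With scaling by library size alone the members divided into 15 above and 16 below, where the shares over all genes were 28.5% and 47.9%. By class, both libraries were above for 8 of 14 core, 12 of 20 regulatory, 1 of 3 immunoproteasome and 2 of 5 activator genes, and below for 1, 6, 2 and 2. For 22 members both libraries at 4 h lay farther from the control, on the same side, than from each other, as did 41.7% of all genes. Folds were counted for the 40 members with a mean of at least 30 counts per library, beside all genes with that mean. A difference of at least 1.25-fold upwards in both libraries was seen in 4 members (15.2% of those genes), namely Psme4, Psme3, Psmc6 and Psmb2, and downwards in 1 (14.4%), Psme1. Without that minimum the counts were 5 (18% of all genes) and 2 (15.2%), with Psmb11 and Psmb9 added. Psmb11 had 2 counts in the control and 3 in library 1 at 4 h, so its place among the 5 measures no fold. In library 1 alone 5 members were higher by that much (26.8% of those genes) and 4 lower (27.8%), and in library 2 alone 4 were higher (19.6%) and 1 lower (19.5%). Library 1 added Psmd11 to the higher members and Psmb8, Psmd5 and Psma4 to the lower.

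The same size of difference was seen in fewer members at the other times. At 1 h 1 of the 40 members was at least 1.25-fold higher (12.5% of the genes with that mean), Psme4, and 0 were lower (12.4%). At 8 h 2 were higher (15.8%), Psmb2 and Psmb8, and 1 lower (16.9%), Psme1.

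In the alpha ring, which forms the gate of the barrel, Psma5 and Psma3 stood farthest above the control at 1 h. Psma5 had 55.2 normalized CPM in the control, 62.2 at the 1 h point, 66.3 and 65.1 in the 4 h pair and 60.2 by 8 h. Psma3 had 92.9, 104, 106, 105 and 101 in the same order, so that every library after seizure onset lay above the control for both genes. Here and below, such comparisons all share the 1 control library. The share of all genes with every library on the same side of it is not given. Psma4 had 68.0, 66.3, 51.2, 61.8 and 61.7, with every library below the control and library 1 at 4 h the lowest. Its log2 fold change at 4 h was -0.27 with a standard error (SE) of 0.20 (edgeR adjusted p = 0.627). The other alpha subunits (Psma1, Psma2, Psma6 and Psma7) had log2 fold changes between -0.05 and 0.20 over the 3 times.

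In the beta ring the member farthest from the control was Psmb2, a subunit without a cutting site. It had 42.3 normalized CPM in the control, 45.2 at the 1 h point, 56.2 and 54.4 in the 4 h pair and 57.6 by 8 h. The 3 libraries at 4 h and 8 h lay close together, all above the control and 1 h. The log2 fold change came to 0.39 at 4 h (SE 0.18), and at 8 h it was 0.44 (SE 0.21), the highest of the members with at least 50 counts at that time, and neither passed (edgeR adjusted p = 0.482 and 1.00). Psmb3 had 51.3, 53.8, 46.7, 55.9 and 58.2 normalized CPM, with the control between the libraries at 4 h, and its log2 fold change at 8 h was 0.18 (SE 0.23). Psmb1 and Psmb4 stayed between -0.10 and 0.11 in log2 fold change.

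The cutting subunits of the constitutive core showed no common direction. Psmb5, which carries the chymotrypsin-like activity, had 33.0 normalized CPM in the control, 30.0 at the 1 h point, 28.8 and 35.5 in the 4 h pair and 34.3 by 8 h. Psmb6, with the caspase-like activity, had 71.4, 72.0, 77.4, 83.1 and 70.8. Psmb7, with the trypsin-like activity, had 97.0, 94.3, 115, 116 and 98.6. Psmb7 and Psmb6 were higher in both libraries at 4 h than in any other library, with log2 fold changes of 0.26 (SE 0.16, edgeR adjusted p = 0.588) and 0.17 (SE 0.17, edgeR adjusted p = 0.726), whereas for Psmb5 the control lay between the pair.

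Of the ATPases that unfold substrates, Psmc6 differed most from the control. It had 94.0 normalized CPM in the control, 102 at the 1 h point, 136 and 123 in the 4 h pair and 101 by 8 h, and both libraries at 4 h lay above all others. Its difference from the control at 4 h was 0.46 on the log2 scale (SE 0.17, 95% interval 0.02 to 0.89), with an unadjusted edgeR p of 0.042 and an adjusted p of 0.415. Psmd1, Psmd2 and Psmd4 of the base had log2 fold changes of 0.16, 0.21 and 0.01 at 4 h. The other 5 ATPases had log2 fold changes between -0.13 (Psmc3) and 0.21 (Psmc4) at 4 h. Psmc6 was also 1 of the 6 genes with the antioxidant response element letters shown above, whose log2 fold changes at 4 h lay between -0.13 (Psmd9) and 0.78 (Psme4).

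In the lid, which removes ubiquitin from the substrate, Psmd11 had the widest spread of the abundant members at 4 h. It had 31.0 normalized CPM in the control, 32.4 at the 1 h point, 56.3 and 36.6 in the 4 h pair and 35.0 by 8 h. Library 1 was 1.54 times library 2, so the log2 fold change of 0.58 at 4 h had an SE of 0.31 (edgeR adjusted p = 0.523) and rested mainly on library 1. Psmd12 had 58.7, 62.8, 72.2, 69.9 and 67.1 normalized CPM, above the control in each library after seizure onset, and its log2 fold change was 0.28 at 4 h (SE 0.17) and 0.19 at 8 h (SE 0.20). Psmd7 had 68.8, 59.3, 66.8, 63.3 and 62.3, and Psmd3 had 85.6, 84.4, 83.3, 81.8 and 78.0, both below the control in each. Psmd14, the deubiquitinating enzyme of the lid, had log2 fold changes between -0.05 and 0.09 at the 3 times, and Psmd6, Psmd8 and Psmd13 between -0.01 and 0.26.

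The 3 assembly chaperones stood slightly below the control at the early times. Psmd5 had 56.1 normalized CPM in the control, 50.1 at the 1 h point, 41.5 and 47.3 in the 4 h pair and 53.5 by 8 h. Psmd9 had 23.2, 20.5, 20.0, 22.3 and 22.7, and Psmd10 had 9.75, 8.14, 9.62, 9.31 and 10.4. All 3 were below the control at 1 h and in both libraries at 4 h, and at 8 h Psmd10 was above it. Of all genes tested, 38.3% were below the control in both libraries at 4 h. The log2 fold change of Psmd5 at 4 h was -0.34 (SE 0.19, edgeR adjusted p = 0.547). For Psmd9 and Psmd10 it was -0.13 (SE 0.23) and -0.04 (SE 0.28), smaller than the SE in both. Psmd9 shares 25.5% of its exon length with a gene on the opposite strand, and whether counting used the strand is not stated.

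At 4 h the activators held the highest and the lowest of the members with at least 50 counts in a library, and Psme4 and Psme3 stayed above 0, and Psme1 below, under each scaling run. Psme4, which encodes PA200, the large single-chain cap found in the nucleus, had 87.1 normalized CPM in the control, 128 at the 1 h point, 165 and 134 in the 4 h pair and 100 by 8 h. All 4 libraries after seizure onset lay above the control, library 1 at 4 h the highest, and 8 h was nearest to the control. The log2 fold change at 1 h, 4 h and 8 h was 0.55 (SE 0.23), 0.78 (SE 0.20, 95% interval 0.27 to 1.29) and 0.20 (SE 0.23). At 4 h the unadjusted edgeR p was 0.010 and the adjusted p 0.327. Without the filter on low counts the edgeR adjusted p was 0.0093, the only setting of those run in which a member was called. That setting called 1300 genes at 4 h over all genes, where the filtered run called 1 of 19768.

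Psme3 encodes PA28 gamma, the nuclear cap that degrades proteins without ubiquitin. It had 58.1 normalized CPM in the control, 62.7 at the 1 h point, 94.1 and 77.5 in the 4 h pair and 61.4 by 8 h. Both libraries at 4 h lay above the other 3, which were within a few units of each other. At 4 h the log2 fold change reached 0.56 (SE 0.20, 95% interval 0.05 to 1.07), with an edgeR adjusted p of 0.402, and at 1 h and 8 h it was 0.11 and 0.08 (SE 0.23 for both).

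Psme1 and Psme2 encode the subunits of the interferon-responsive cap PA28. Psme1 had 23.1 normalized CPM in the control, 19.5 at the 1 h point, 15.3 and 17.7 in the 4 h pair and 16.9 by 8 h, with every library after seizure onset below the control. Its log2 fold change at 1 h, 4 h and 8 h was -0.25 (SE 0.28), -0.48 (SE 0.24) and -0.45 (SE 0.28), the lowest of the members with at least 50 counts at 4 h and 8 h (edgeR adjusted p = 0.502 at 4 h and 1.00 at 8 h). Psme2, whose product forms a ring with that of Psme1, had 13.7, 15.0, 12.9, 15.1 and 13.2 normalized CPM, above the control at 1 h and in library 2 at 4 h and below it in the others. The 2 genes lie 5911 bases apart on chromosome 14. Psme2b, a single-exon gene resembling Psme2, had between 13 and 22 counts, and reads shared with Psme2 would not have been counted on either.

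**Figure D3:**
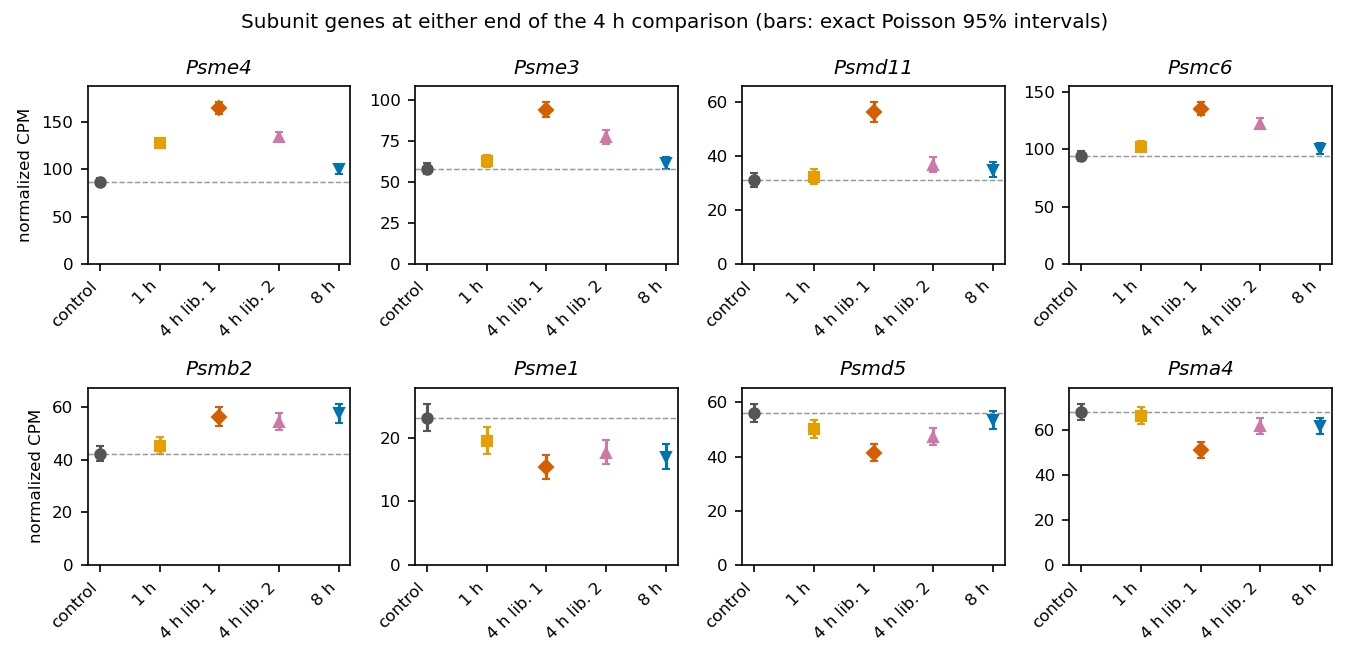
Normalized CPM (vertical axis, from 0) in each of the 5 libraries (horizontal axis) for 8 members at either end of the comparison at 4 h, with exact Poisson 95% intervals that cover counting error only and a dashed line at the control. Psme4, Psme3, Psmd11, Psmc6 and Psmb2 stand above the line in both libraries at 4 h, and Psme1, Psmd5 and Psma4 below it.

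Set against the ATPases, the levels of the caps differed between libraries. Relative to the geometric mean of the 6 ATPases, which mark the regulatory particle, the level of Psme4 was 0.817 in the control, 1.17 at the 1 h point, 1.39 and 1.13 in the 4 h pair and 0.901 by 8 h. For Psme3 the ratio was 0.545, 0.574, 0.795, 0.652 and 0.553, and for Psme1 it was 0.217, 0.178, 0.129, 0.149 and 0.153. The ratio of Psme2 was 0.129, 0.137, 0.109, 0.127 and 0.119, with no common direction. These ratios do not depend on the scaling between libraries, and in them the control is the lowest library for Psme4 and Psme3 and the highest for Psme1. They were not tested, and they also vary with the level of the ATPases, Psmc6 among them. The summed level of the 6 ATPases was 657 normalized CPM in the control and 671 at the 1 h point. It was 721 and 722 in the 4 h pair and 679 by 8 h. Over the 43 members tested, library 1 at 4 h was below library 2 for 26 (49% of all genes).

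**Figure D4:**
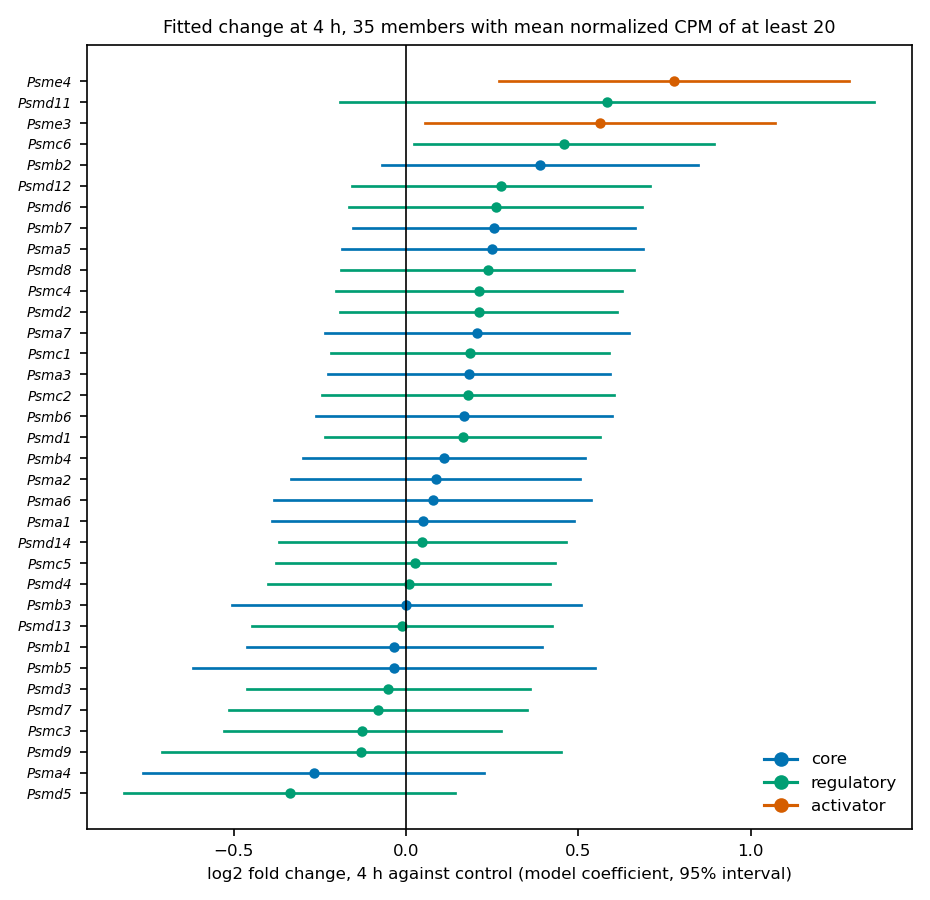
Log2 fold change at 4 h against the control (horizontal axis, model coefficient with its 95% interval) for the 35 members with a mean of at least 20 normalized CPM (vertical axis, ordered by value, coloured by class). The intervals of Psme4, Psme3 and Psmc6 do not include 0, and those of the other 32 do.

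Beside their constitutive counterparts, Psmb8 and Psmb9 each made up a small share of the transcript counts in every library, and Psmb10 a larger one. Psmb8, the counterpart of Psmb5, had 43 counts in the control, 31 at the 1 h point, 29 and 40 in the 4 h pair and 51 by 8 h, which is 2.16, 1.76, 1.72, 2.12 and 2.91 normalized CPM. Psmb9, the counterpart of Psmb6, had 26, 17, 6, 19 and 24 counts, or 1.31, 0.967, 0.356, 1.00 and 1.37 normalized CPM. Psmb10, the counterpart of Psmb7, was more abundant with 357, 336, 315, 342 and 273 counts, or 17.9, 19.1, 18.7, 18.1 and 15.6 normalized CPM. Psmb8 was highest at 8 h and Psmb10 lowest there. The log2 fold changes at 8 h were 0.41 (SE 0.54), 0.06 (SE 0.82) and -0.20 (SE 0.27) for Psmb8, Psmb9 and Psmb10, so the first 2 genes had SEs too large to show even a doubling.

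As a share of the counts of each pair, Psmb8 made up 6.15% of Psmb8 and Psmb5 in the control (exact Clopper-Pearson 95% interval 4.49 to 8.20%). The share was 5.56% at the 1 h point, 5.64 and 5.62% in the 4 h pair and 7.82% by 8 h (5.88 to 10.2%), with overlapping intervals throughout. Psmb9 made up 1.80% of Psmb9 and Psmb6 in the control (1.18 to 2.62%) and 1.33% at the 1 h point. In the 4 h pair the share was 0.46% in library 1 (0.17 to 0.99%) and 1.19% in library 2 (0.72 to 1.86%), and by 8 h it was 1.90%. Library 1 was the lowest, its interval lay under that of the control, and library 2 did not share this. Psmb10 made up 15.6% of Psmb10 and Psmb7 in the control (14.1 to 17.2%), 16.9% at the 1 h point, 14.0 and 13.4% in the 4 h pair and 13.6% by 8 h (12.2 to 15.2%). At 4 h the level of Psmb10 was 18.7 and 18.1 normalized CPM against 17.9 in the control, and that of Psmb7 was 115 and 116 against 97.0, so the lower share there goes with the higher level of Psmb7. Per kilobase of exon the shares lay between 1.54 and 2.21% for Psmb8, 0.23 and 0.98% for Psmb9 and 23.8 and 28.9% for Psmb10. The intervals cover counting error only, and the control, 1 h and 8 h have no second library.

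**Figure D5:**
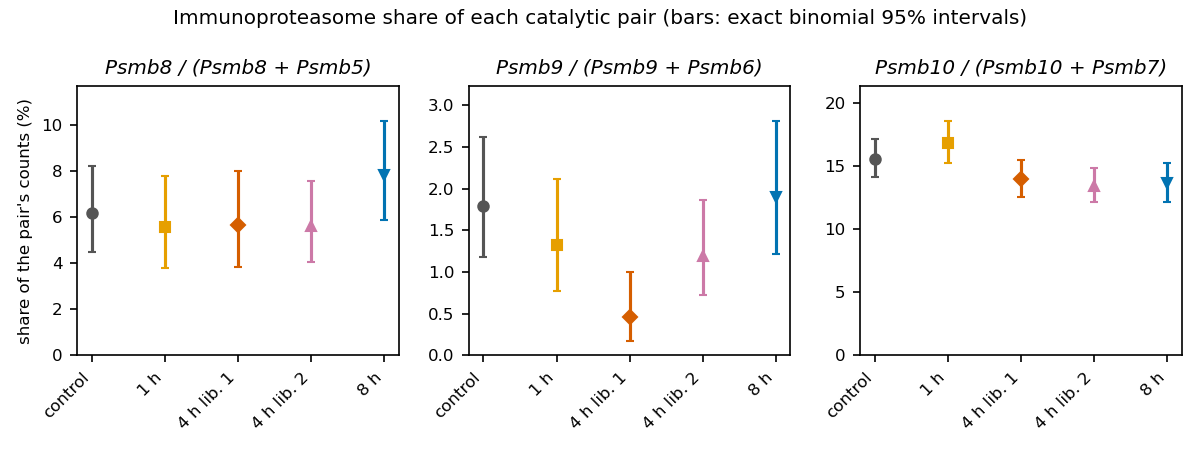
Share of the counts of each catalytic pair that fell on the immunoproteasome gene (vertical axis, percent, from 0) in each of the 5 libraries (horizontal axis), with exact binomial 95% intervals for counting error. Psmb8 stays between 5.56% and 7.82%, Psmb9 between 0.46% and 1.90% and Psmb10 between 13.4% and 16.9%.

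Psmb8 and Psmb9 lie in the major histocompatibility locus on chromosome 17, 9956 bases apart and beside the peptide transporters. Tap1, which overlaps 5.79% of the exon length of Psmb9 on the opposite strand, had 46 counts in the control, 44 at the 1 h point, 40 and 46 in the 4 h pair and 77 by 8 h, and its log2 fold change at 8 h was 0.89. Tap2 had a log2 fold change of -0.50 at 4 h, and B2m, the light chain of class I molecules, of 0.16. In a list of 21 genes of class I presentation and interferon response, 19 were tested and 0 were called in either direction at any time. Of those 19, 5 lay above 0 and 14 below at 1 h, 8 above and 11 below at 4 h, and 16 above and 3 below at 8 h. Over all genes tested 10103 lay above 0 and 9665 below at 8 h. At 4 h the highest was Nlrc5, the transactivator of class I genes, at 1.39 from 0.854 normalized CPM in the control to 2.73 and 2.12, and the lowest Stat2 at -0.62. Ifng, which induces the immunoproteasome, had 0 counts in all 5 libraries, where a count of 0 allows up to 0.151 to 0.178 normalized CPM.

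Immune cells are a known source of immunoproteasome transcripts. The summed level of 12 microglial markers was 347 normalized CPM in the control, 366 at 1 h, 346 in both libraries at 4 h and 348 at 8 h, but single markers lay on both sides of the control at 4 h, 4 of the 12 above and 8 below. P2ry12 had 31.9 normalized CPM in the control and 13.9 and 17.8 in the 4 h pair (unadjusted edgeR p 0.0085, adjusted p 0.319), and C1qb had 23.7, then 32.8 and 30.4. The sum of 12 leukocyte markers was 5.43 in the control, 7.45 at the 1 h point, 7.96 and 6.72 in the 4 h pair and 8.78 by 8 h, lowest in the control and highest at 8 h. Of the 12, 9 did not pass the filter on low counts, and the 3 tested stood above 0 at 8 h (median log2 fold change 0.71). Astrocyte markers summed to 3809 in the control and to between 3997 and 4798 after seizure onset, mostly from Slc1a2 (2615 in the control). Within that list Gfap had 221 normalized CPM in the control, 596 and 510 in the 4 h pair and 587 by 8 h, and Gja1 had 195 in the control and 98.6 by 8 h. All 8 astrocyte markers lay above 0 at 4 h (median log2 fold change 0.36). Oligodendrocyte markers summed to 3382 in the control, 4214 at the 1 h point, 3981 and 5126 in the 4 h pair and 3343 by 8 h. All 8 of these lay above 0 at 1 h and at 4 h (median log2 fold change 0.31 and 0.42), and 6 lay below at 8 h. Endothelial markers summed to 161 in the control, 149 at the 1 h point, 178 and 139 in the 4 h pair and 164 by 8 h, and of the 8 tested 0 were called. At 4 h 5 of the 8 lay above 0 and 3 below, as at 8 h. Within that list Pecam1 had 13.1 normalized CPM in the control and 26.2 by 8 h (unadjusted edgeR p 0.042). Cdh5 had 5.33 in the control and 18.1 and 7.19 in the 4 h pair. Tek had 13.3 in the control and 7.19 and 6.19 in the 4 h pair (unadjusted edgeR p 0.015). Slco1a4 had 48.6 in the control and 12.0 and 30.0 in the 4 h pair. The part of these cell types in the members' values was not tested. In bulk tissue fewer cells of a type and less RNA per cell cannot be told apart.

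Genes that build or supply the proteasome were likewise not called, with 0 of 14 tested in a list of assembly and accessory factors and 0 of 15 in a list of the NFE2L1 axis and ubiquitin shuttles at any time. Nfe2l1, the transcription factor of the subunit genes, had 260 normalized CPM in the control, 247 at the 1 h point, 218 and 243 in the 4 h pair and 245 by 8 h, and Nfe2l2, its relative, stayed between 18.5 and 23.0. Pomp, the chaperone that matures the core, had 61.6, 62.0, 60.3, 63.7 and 47.4 normalized CPM, with 8 h the lowest. Neither transcription factor had a level above the control by more than the spread of the pair.

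Txnl1, a thioredoxin-like protein bound to the regulatory particle, was the highest of its list at 4 h, with 65.2 normalized CPM in the control, 79.5 at the 1 h point, 180 and 119 in the 4 h pair and 70.8 by 8 h (log2 fold change 1.20, unadjusted edgeR p 0.0079, adjusted p 0.316). The lowest of that list was the core chaperone Psmg2, at -0.57. Zfand5, which binds the proteasome and stimulates it, had 152, 287, 328, 226 and 139 normalized CPM and a log2 fold change of 0.91 at 1 h and 0.86 at 4 h, while Ngly1, the enzyme that processes NFE2L1, was lowest of its list at -0.48 at 4 h. Ddi2, the protease that activates NFE2L1, was the highest of the list at 8 h, with 72.1 normalized CPM in the control, 62.8 at the 1 h point, 74.4 and 79.3 in the 4 h pair and 127 by 8 h (log2 fold change 0.82, unadjusted edgeR p 0.0071, adjusted p 0.885). The ubiquitin-conjugating enzyme Ube2d3 had 239, 342, 456, 324 and 249 normalized CPM.

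The position of the members in the genome bears on how their reads were counted. The 44 genes lie on 16 chromosomes, with 9 on chromosome 11 and 6 on chromosome 14, and 3 pairs lie within 20 kb of each other, which besides those named are Psmb5 and Psmb11, 3410 bases apart. Exons overlap an opposite-strand gene by 14.7% of the length in Psmb8 (Gm20496, with 0 counts in all libraries), 11.8% in Psmb7 (Nek6), 10.1% in Psmd13 (Sirt3) and 8.25% in Psmc3 (Slc39a13). The 4 named pseudogenes of Psmb5, Psmb6 and Psmb7 had between 0 and 3 counts. Between 9.67% and 11.6% of read pairs aligned to several places and were not assigned to genes, so members with near-identical copies elsewhere may read low.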

How the data were processed

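Hippocampal total RNA was sequenced from 5 libraries (stranded total RNA kit), and the authors deposited 1 table of raw read counts per gene for each; the submitters' processing notes name STAR 2.5.1b, HTSeq and GRCm38.p4. The HTSeq version, its strand setting and its annotation release were not given in the sources used here. Summary lines (no feature, ambiguous, several alignments), 37.8% to 44.1% of each table, were left out. Identifiers of all 44 members matched GENCODE M21 with the same version, which gave exon lengths and overlaps. Counts were filtered with filterByExpr, scaled by TMM and tested with the quasi-likelihood test of edgeR 4.0.16 (R 4.3.3) in 4 groups, with Benjamini-Hochberg adjustment over 19768 genes, and log2 fold changes used a prior count of 2. The biological coefficient of variation was 0.238. SEs are the coefficient divided by the root of F. Alternatives were DESeq2 1.42.0, limma-voom 3.58.1, other scaling, no filter and either library at 4 h left out. Tested on simulated data of the same 19768 genes for 4 h against control, edgeR called 62 of 100 genes changed 4-fold and 11 of 100 changed 2-fold in the right direction, with 6 false calls. Exact Poisson and Clopper-Pearson intervals used scipy 1.17.1. The members, classes and lists were chosen with earlier results of these data known. Named in full were Psmb5 to Psmb10, Psme1 to Psme4 and, at each time, the 5 highest and 5 lowest members with at least 50 counts in a library. Psmd2, Psmd4, Psma8 and Psmb11 are also given in each library and Psmd1 at 4 h, and the other members by range. Of 1 further gene list a single gene is given, and its other results are not reported here.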

Additional observations from a re-analysis of the deposited data

How the results depend on the processing

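The number of all genes called depended on the tool and scaling, and the cause was not tested. Against 0 at 1 h, 1 at 4 h, 0 at 8 h and 2 jointly, there were 285, 1300, 279 and 1761 without the filter on low counts, 46, 216, 31 and 288 with DESeq2 and 57, 237, 22 and 338 with library size alone, while limma-voom and median-of-ratios factors gave 0 at 4 h and 0 jointly. The members called stayed at 0 except without the filter, where Psme4 was the 1 called at 4 h and the 1 called jointly (log2 fold change 0.76 at 4 h, adjusted p 0.0093, against a range of 0.0093 to 0.381 over all settings). With library size alone the medians were -0.040 (1 h) and -0.027 (4 h) for core and -0.049 and -0.018 for regulatory subunits. Leaving the assembly chaperones out of the regulatory median, also chosen after seeing the data, gave -0.036, 0.058 and 0.068 (8 h) there, 0.17 (4 h) and 0.035 (8 h) without the filter, and 0.16 to 0.17 at 4 h with either library left out, against 0.04, 0.18 and 0.05. The activator median at 4 h was -0.086 there, and between -0.083 and 0.14 with either library at 4 h left out. Each library at 4 h by itself, an alternative chosen after seeing the data, gave 4 to 5 members at least 1.25-fold higher and 1 to 4 lower. The minimum of 30 counts on average was also chosen after seeing the data. With the other members included 5 were higher, Psmb11 at the limit of detection among them, and 2 lower. Of 69 fold changes of named members, 8 had another sign in at least 1 setting, in Psmb3, Psmb5, Psmb6, Psmb10, Psmd11 and Psme2. No paired analysis was possible because the groups share fewer than 2 replicate numbers.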
